A study of Mus musculus with 4 samples.

Results

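Orchiectomy was set against sham surgery in the lungs of mice that had inhaled elastase, on 2 of the 4 arrays of a study of testosterone deficiency in a mouse model of emphysema. The study crossed surgery, sham or ORX, with an inhaled agent, PBS or PPE, in C57BL/6J mice, and each array carried total lung RNA pooled from 5 mice, taken 3 weeks after the agent was given. ORX was read as orchiectomy and PPE as porcine pancreatic elastase, since the title of the study names testosterone deficiency and elastase-induced emphysema. The arrays compared were those titled ORX/PPE and sham/PPE, so both groups were C57BL/6J mice given PPE, and they differed by the surgery. The other arrays, sham/PBS and ORX/PBS, held lungs of mice that received PBS in place of elastase. The age of the mice and the hour of sampling are not given in the labels. With a single array in a group, no test was possible, and the spread between mice is unknown because their RNA was pooled.

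Elastase given into the airways breaks down elastin fibres of the alveolar walls, draws neutrophils and macrophages into the lung, and leaves enlarged airspaces. Neutrophil elastase and the enzyme given here are serine proteases, which serpins such as alpha-1 antitrypsin inhibit, while cystatins and stefins inhibit cysteine proteases such as cathepsins. Removal of the testes removes the main source of testosterone, which sets the level of many genes in the liver and the reproductive tract. In the mouse, major urinary proteins of the liver and the homeobox gene Rhox5 of the epididymis are classic androgen-dependent genes.

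Values are log2 signals relative to the 75th percentile of their array, and a difference is ORX/PPE minus sham/PPE on that scale, so a value of 1 is 2-fold. Where 4 levels of a gene are given, they run from sham/PBS through sham/PPE and ORX/PBS to ORX/PPE. A gene was read from its brightest probe and counted as measured where that probe was well above background on both arrays. It was called higher or lower in ORX/PPE lungs where the arrays differed at least 2-fold. Of 26347 genes on the array, 19129 were measured, and of 56605 probes, 39270 were. The signal at the 75th percentile was 824.3 on sham/PPE and 855.6 on ORX/PPE, and between 40636 and 42649 probes were well above background on each of the 4 arrays. The tissue label was borne out by defining markers: the type 2 cell surfactant gene Sftpc stood at 8.97, 9.01, 8.76 and 8.90, the type 1 cell receptor Ager at 7.76, 7.88, 7.71 and 7.75 and the club cell secretoglobin Scgb1a1 at 8.83, 8.86, 8.62 and 8.76. These 3 genes differed by -0.13 to -0.10 between the arrays compared. Of 7 Y-linked genes 4 were measured on both arrays, with a median difference of 0.078.

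The sham/PPE array stood apart from the other 3 by some transcripts that are known from organs other than lung. Its level lay above both PBS arrays for 28 of 34 heart, 7 of 12 brown fat and 8 of 15 spermatid genes. These are genes measured on all 4 arrays, and the share over all genes was 33.79%. The counts were 19 of 24 for white fat, 2 of 9 for pancreas, 4 of 16 for nerve, 4 of 14 for thymus and 3 of 10 for cartilage genes. This order was not particular to such genes. It held for 45 of 50 respiratory chain, 25 of 28 neutrophil and 21 of 25 alveolar type 2 genes. By 2-fold or more it held for 6 heart, 3 brown fat, 5 spermatid and 9 neutrophil genes, and for 0 of the respiratory chain and type 2 genes. ORX/PPE lay below both PBS arrays for 30 heart, 6 brown fat and 6 spermatid genes, against 32.27% of all genes. A low value of the difference can thus come from sham/PPE, from ORX/PPE or from both, and the PBS levels are given beside it. In RNA of whole tissue, fewer cells of a type and less RNA per cell cannot be told apart. What part such transcripts had in the other differences was not tested.

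More genes were called lower than higher in ORX/PPE lungs. The calls were 46 higher (0.240% of the genes measured) and 201 lower (1.05%), together 247 (1.29%), with 18882 in neither. At these shares, a gene list with 0 calls lies near all genes. By single probes they were 106 higher (0.270%) and 318 lower (0.810%). The median difference of all genes was -0.017, with quartiles of -0.16 and 0.13. Genes called higher were mostly dim: 36 of the 46 lay among the 4783 dimmest genes and 3 among the 4782 brightest, against 100 and 18 of the 201 called lower. Background correction by normexp, which shrinks differences of dim probes, left 4 genes called higher and 81 called lower. Genes above background on 1 of the 2 arrays have only a bound, taken against the lowest signal well above background on the other. By this bound 21 more genes were higher and 87 more were lower by 2-fold or more, of which 0 and 10 remained past 2-fold with normexp.

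Of the genes called lower, 198 were measured on all 4 arrays, and sham/PPE lay above both PBS arrays in 171 of them and ORX/PPE below both in 152. Both held for 129, or 65.15%, where they held for 9.85% of all 18859 genes measured on 4 arrays. The sham/PPE level was at least 2-fold above both PBS arrays in 50 genes, and the ORX/PPE level at least 2-fold below both in 21. Among 43 called higher and measured on all 4, ORX/PPE lay above both PBS arrays in 35 and sham/PPE below both in 29. The levels that set the calls enter these counts, so the counts are a description. Members of the lists of other organs made up 47 of the 201 genes called lower, which is 21.36% of the 220 such genes measured, against 154 of 18909 genes outside these lists (0.814%). They made up 1 of the 46 called higher. The lists were chosen with earlier results of these data known, so these shares are a description too. The cardiac list held 26 of the 47, while the pancreas, erythroid, nerve and mesothelial lists held 0.

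**Figure D1:**
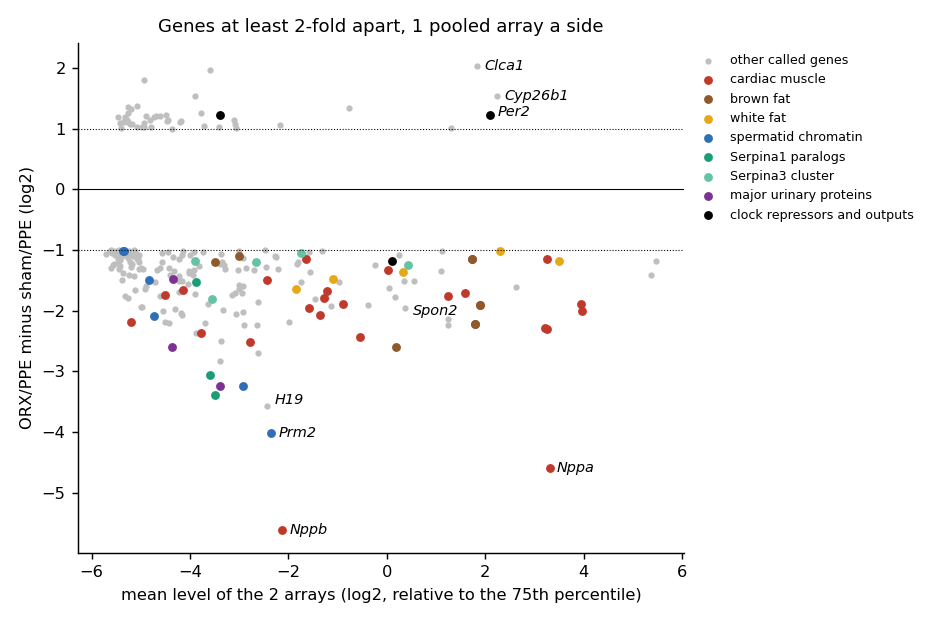
Difference between the arrays (ORX/PPE minus sham/PPE, log2) against the mean level of the 2 arrays for the 247 genes at least 2-fold apart, with members of 8 gene lists in colour and dotted lines at 2-fold. Nppb at -5.61 and Nppa at -4.60 lie lowest, and most genes called higher sit at the dim left end.

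Genes of heart muscle held more calls than any other list used. Of 34 measured members of the cardiac list 26 were called lower in ORX/PPE lungs, 0 were higher and 8 neither, and the list median was -1.75 against -0.017 for all genes. Nppa, which encodes the atrial natriuretic peptide, stood at 2.60, 5.60, 2.49 and 1.0 on the 4 arrays. It was 24.2-fold lower on ORX/PPE than on sham/PPE, sham/PPE being the highest of the 4 and ORX/PPE the lowest. Nppb, the gene of brain natriuretic peptide, stood at -4.04, 0.67, -3.96 and -4.93, a difference of -5.61 (-3.95 with normexp), and here the PBS arrays lay near ORX/PPE while sham/PPE stood alone. A further probe of Nppb gave a difference of -3.96.

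Many sarcomere genes kept a steadier order over the arrays. Myh6, the alpha myosin heavy chain of atrium and adult mouse ventricle, stood at 3.66, 4.41, 3.17 and 2.11, with a difference of -2.29 and another probe at -1.69. Myl7, an atrial myosin light chain, stood at 4.21, 4.88, 3.98 and 3.00, a difference of -1.88, and the atrial light chain Myl4 at 4.22, 4.97, 3.92 and 2.97, a difference of -2.0. Each was highest on sham/PPE and lowest on ORX/PPE, with both PBS arrays between. The same order held for Sln, the atrial inhibitor of the calcium pump, at 3.41, 4.34, 3.16 and 2.06, for Mybpc3, the cardiac myosin binding protein, at -0.64, 0.67, -1.12 and -1.77, and for Tnni3, cardiac troponin I, at 1.55, 2.13, 1.25 and 0.37. Over the list, sham/PPE was the highest array for 28 genes and ORX/PPE the lowest for 30 of 34. Casq2 at -2.07, Csrp3 at -1.89 and Cox7a1 at -1.91 were among the 25 lowest genes too, while the heart actin Actc1, at -0.60, did not pass 2-fold. Actc1 also broke the order, at 2.36, 1.98, 2.16 and 1.38, with sham/PPE below both PBS arrays.

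Of 19 skeletal muscle genes 3 passed 2-fold, with a median of -0.34. They were Mb, the myoglobin of heart and red muscle, at -2.13, the myosin heavy chain Myh8 at -1.78, and Pgam2, a muscle phosphoglycerate mutase, at -1.63. The skeletal actin Acta1 was at -0.30, the fast myosin Myh4 at 0.53 and the fast troponin Tnnt3 at 0.23. Mouse lungs hold a sleeve of cardiac muscle around the pulmonary veins, which expresses atrial genes. How far this sleeve or heart tissue contributed was not tested.

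Genes of brown and white fat lay lower as well. Ucp1, the uncoupling protein by which brown fat makes heat, was at least 200-fold lower, since its probe was not well above background on ORX/PPE, and the normexp bound was -4.87 on the log2 scale. Its levels were -6.36, 1.34, -6.10 and -6.52, so only sham/PPE was high. Cidea, a lipid droplet protein of brown fat, stood at -0.69, 1.48, -1.05 and -1.12, a difference of -2.60 in which the PBS arrays lay beside ORX/PPE. Of 12 brown fat genes measured 6 were called lower, with a median of -1.03, though the mitochondrial subunits Cox8b and Cox7a1 and the fatty acid binding protein Fabp3 stand in the cardiac list too, and the kininogen Kng1 in the liver list. In white fat, 5 of 24 passed, with a median of -0.42 and 23 members below 0. The hormone gene Adipoq stood at 0.11, 1.01, 0.56 and -0.35, a difference of -1.37, the lipid droplet coat Plin1 at -2.10, -1.02, -2.29 and -2.66, a difference of -1.63, and the fatty acid carrier Fabp4 at 2.92, 4.09, 3.28 and 2.91, a difference of -1.18. All 3 were highest on sham/PPE, and ORX/PPE was the lowest array for each. Fabp4 stands in the alveolar macrophage list too. Pck1, the gluconeogenic enzyme, differed in pattern, with levels of -0.65, -0.35, -2.65 and -1.83 that were lower on both ORX arrays.

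Prm1, Prm2 and Tnp1, genes known from spermatids, stood high on sham/PPE alone. Prm1, a protamine that packs sperm DNA, was at least 111-fold lower on ORX/PPE, with levels of -5.38, 0.49, -5.96 and -6.51 and a normexp bound of -4.09. Prm2 stood at -4.69, -0.34, -4.97 and -4.36 and the transition protein Tnp1 at -4.83, -1.30, -4.55 and -4.54, differences of -4.01 and -3.24 that normexp brought to -2.82 and -2.03. Of 27 spermatid genes 15 were measured on both arrays, and 6 of these were called lower, while 7 more were so by a bound. The median of the measured members was -0.21, with 5 above 0, and sham/PPE was the highest array for 7 of them. Outside this list, the imprinted RNA H19, abundant in fetal tissue and muscle, stood at -4.73, -0.65, -4.40 and -4.22, a difference of -3.58 (-2.54 with normexp). Dbh, the enzyme that makes noradrenaline in sympathetic nerves and adrenal medulla, was at least 13.7-fold lower, with a normexp bound of -1.68 on the log2 scale. For each of these genes sham/PPE stood apart, and the PBS arrays lay nearer to ORX/PPE than to it. Of other tissues, 0 of 11 pancreas, 0 of 12 erythroid and 0 of 14 mesothelial genes were called lower, near the 1.05% of all genes. Their medians were -0.018, -0.13 and -0.38. All 14 mesothelial genes lay below 0, Upk3b at -0.59, Wt1 at -0.40 and Msln at -0.24.

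**Figure D2:**
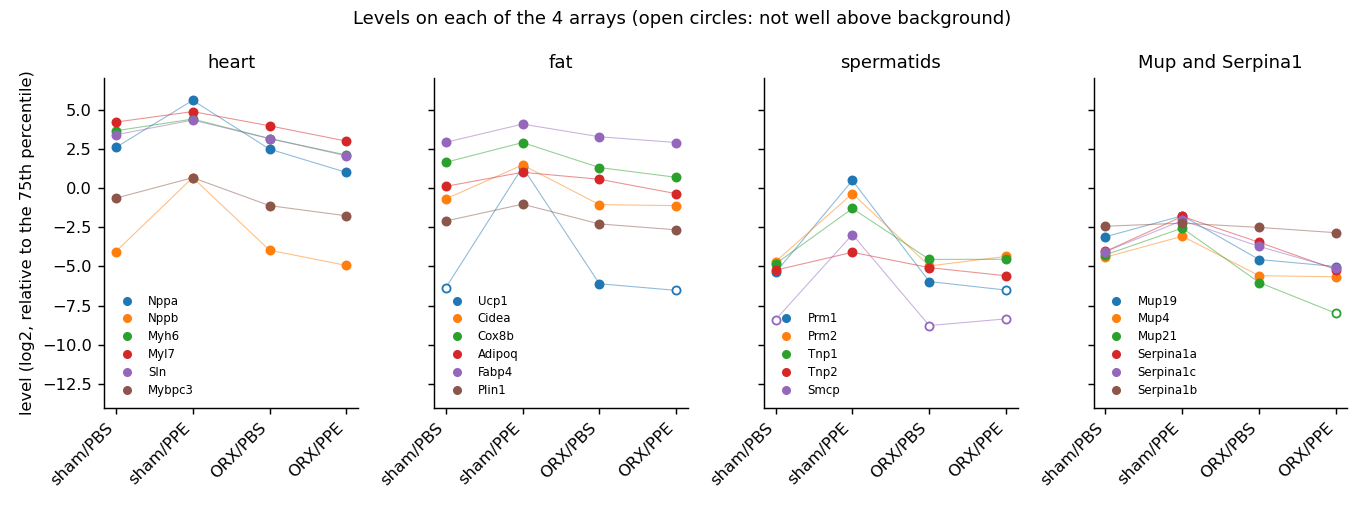
Levels (log2, relative to the 75th percentile) on each of the 4 arrays for genes of heart, fat and spermatids and for Mup and Serpina1 genes; thin lines only link the points of 1 gene, and open circles mark probes not well above background. Sham/PPE is the highest array for every gene drawn, and the points of Ucp1 and Prm1 lie low on the other 3.

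The probes of Ucp1 and Nppb, genes with differences among the largest, are shown as the 60-base stretches of transcript that the signals come from. That of Ucp1 lies at chr8:85821788-85821847 and that of the further Nppb probe at chr4:147360489-147360548, both on mm9 and the plus strand.
Ucp1: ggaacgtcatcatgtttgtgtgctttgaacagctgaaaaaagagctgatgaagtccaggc
Nppb: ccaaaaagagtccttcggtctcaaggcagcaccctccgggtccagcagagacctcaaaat
The files give no exon or UTR for a probe, and no annotation of this build was used here.

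Genes of liver plasma proteins were lower in few cases. Of 25 measured 3 passed 2-fold, with a median of -0.22. The fetuin Ahsg stood at -3.15, -0.90, -2.60 and -3.08, a difference of -2.18, and Alb, serum albumin, at -3.32, -2.27, -2.69 and -4.01, a difference of -1.75. The kininogen Kng1 was at -1.1 (-0.77 with normexp). Ahsg was high on sham/PPE alone, while Alb was also lowest on ORX/PPE.

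The Serpina1 genes encode mouse alpha-1 antitrypsins, made chiefly in liver and the main plasma inhibitors of neutrophil elastase. Serpina1a stood at -4.04, -1.81, -3.46 and -5.2, a difference of -3.39 (-1.95 with normexp), and Serpina1c at -4.05, -2.06, -3.72 and -5.12, a difference of -3.06 (-1.66 with normexp). Serpina1e, at -3.77, -3.12, -3.95 and -4.65, was at -1.53 (-0.91 with normexp), with another probe at -3.02. Serpina1b, at -2.43, -2.23, -2.51 and -2.84, was at -0.61 and did not pass 2-fold. All 4 were highest on sham/PPE and lowest on ORX/PPE, and the list median was -2.30. These copies are near-identical, so a probe may read more than 1 of them, and 3 of their probes cover an overlapping stretch. They are shown with their longest shared run, of 16 bases, in capitals. The probes behind the Serpina1a and Serpina1c differences are not printed, and which copy each signal belongs to was not tested.
Serpina1a: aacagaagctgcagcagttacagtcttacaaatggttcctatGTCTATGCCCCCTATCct
Serpina1b: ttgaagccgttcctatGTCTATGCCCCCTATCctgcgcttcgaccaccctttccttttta
Serpina1e: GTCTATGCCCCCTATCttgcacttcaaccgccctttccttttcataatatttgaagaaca
The Serpina1a probe printed is its second one, at chr12:105091979-105092038 on mm9, with levels of -5.86, -4.93, -6.11 and -6.35 and not well above background on ORX/PPE. Those of Serpina1b and Serpina1e lie at chr12:104966520-104966579 and chr12:105185280-105185339, all on the minus strand.

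Major urinary proteins, lipocalins that carry pheromones and depend on androgen in liver, were divided. Of 14 such genes and related lipocalins 7 were measured on both arrays, of which 3 were called lower, and 5 more passed 2-fold by a bound. The median of the measured members was -0.11, with 3 of them above 0. Mup19 stood at -3.10, -1.76, -4.56 and -5.0, a difference of -3.24 (-1.90 with normexp), and Mup4 at -4.41, -3.07, -5.59 and -5.66, a difference of -2.59 (-1.13 with normexp). Mup18 was at least 16.3-fold lower, Mup21 at least 13.5-fold and Mup17 at least 12.1-fold, with normexp bounds of -1.86, -1.63 and -1.51. For each of these 5 genes both ORX arrays lay below both sham arrays, with sham/PPE highest, as in Mup21 at -4.26, -2.55, -6.02 and -7.99. Under PBS the ORX minus sham differences were -1.45 for Mup19 and -1.18 for Mup4. Copies of this family are near-identical, so a probe may read more than 1 of them.

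Among the other protease inhibitors, the Serpina3 cluster lay lower with ORX under both agents. These serpins are homologues of human alpha-1 antichymotrypsin, an acute phase inhibitor of neutrophil and mast cell proteases. Of 11 members 5 were called lower, 0 were higher, and all 11 lay below 0, with medians of -0.73 under PPE and -0.65 under PBS. Serpina3i stood at -2.99, -2.64, -4.64 and -4.46, Serpina3m at 0.64, 1.04, -0.32 and -0.20 and Serpina3f at -2.19, -2.06, -3.35 and -3.25, differences of -1.81, -1.24 and -1.19. For all 3 both ORX arrays lay below both sham arrays, and the sham arrays lay close to each other. Serpina3k was at -1.18 (-0.65 with normexp), while Serpina3n, the member best known in acute inflammation, was at -0.32. Normexp left Serpina3f at -0.89.

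Of 11 secreted cystatins and related proteins measured 6 were called lower, with a median of -1.08 (-0.52 with normexp). Beside Ahsg and Kng1, which are related by fold and not lung inhibitors, these were cystatin genes known from the male reproductive tract: Cst11 at -1.38, Cst9 at -1.33, Cst13 and Cst8. Normexp left Cst11 at -0.58 and Cst9 at -0.95. Cst3, cystatin C, the widely made member, stood at 5.96, 6.49, 6.39 and 6.52, a difference of 0.024. The stefins, intracellular inhibitors that neutrophils carry in mice, had 0 of 5 past 2-fold, with a median of -0.71 and all 5 below 0. Stfa2l1 stood at -2.70, -0.63, -1.56 and -1.52 and Stfa2 at -2.53, -0.62, -1.59 and -1.33, so that sham/PPE was high, sham/PBS low and both ORX arrays between.

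Inhibitors of other families lay near all genes. WAP and Kunitz inhibitors had a median of -0.046, with 0 of 16 past 2-fold, and Slpi, the secretory leukocyte protease inhibitor of airways, stood at 3.84, 4.46, 4.58 and 4.46. The remaining serpins had a median of -0.053 and 0 of 23 lower, and the metalloproteinase inhibitor Timp1 was at -0.39. On the side of the proteases, 0 of 15 matrix metalloproteinases passed 2-fold lower and 0 higher. Mmp12, the macrophage elastase that mouse emphysema models depend on, stood at -2.94, -2.11, -2.59 and -1.16, a difference of 0.95, with another probe at 0.39. The neutrophil enzymes Mmp9 and Mmp8 stood at -2.75, -1.49, -2.19 and -2.41 and -2.28, 0.0015, -1.44 and -0.84, differences of -0.92 and -0.84. ORX/PPE was thus the highest array for Mmp12, while sham/PPE was highest for the other two. Cathepsins and serine elastases had a median of 0.12, with Ctsk at 0.33, Ctss at 0.26 and 0 of 21 past 2-fold.

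The matrix that elastase attacks differed little between the surgeries. Eln, the elastin gene, stood at 1.17, 2.41, 0.40 and 2.46, so both PPE arrays were high and differed by 0.047. Fbln5, which helps assemble elastic fibres, was at -0.12 and the crosslinking enzyme Lox at 0.17, and 0 of 22 elastic fibre genes passed 2-fold, with a median of -0.051. Collagens had a median of -0.048, with 0 of 37 lower and Col1a1 at -0.099, Col3a1 at -0.031 and Col4a1 at 0.017. Among fibroblast genes 1 of 25 passed. It was Spon2, a secreted matrix protein that binds integrins on leukocytes, which stood at 2.22, 1.35, -0.76 and -0.61, a difference of -1.96. Both ORX arrays were far below both sham arrays for Spon2, and the list median was -0.15.

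Neutrophil genes leaned lower in ORX/PPE lungs, with few past 2-fold. Of 30 measured 4 were called lower and 0 higher, 25 lay below 0, and the median was -0.57. The calprotectin subunits S100a8 and S100a9 stood at 2.38, 4.74, 3.50 and 3.82 and 4.55, 6.53, 5.30 and 5.70, differences of -0.92 and -0.83. Sham/PPE was highest and sham/PBS lowest for both, with the ORX arrays between, and the same order held for the collagenase Mmp8. The genes past 2-fold were Ltf, lactoferrin of neutrophil granules and airway glands, at -1.61, the receptor Mrgpra2b at -1.38, the chemokine receptor Cxcr2 at -1.03 and Cd177 at -1.02. Normexp left the last 3 at -0.72, -0.88 and -0.57. Ltf had another pattern, with levels of 3.13, 3.43, 2.63 and 1.83 that were lower on both ORX arrays. Retnlg, a secreted protein of neutrophils, was at -0.54.

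Of 11 genes for chemokines that draw neutrophils and their receptors 2 were called lower, Cxcr2 and Cxcl5, with a median of -0.46. Cxcl5, which alveolar epithelium makes and which binds Cxcr2, stood at -1.7, -2.03, -5.39 and -4.09, a difference of -2.05 (-1.32 with normexp). Both ORX arrays lay below both sham arrays, and ORX/PBS lowest. Cxcl1 was at -0.51 and Cxcl2 at -0.24. The cytokine genes Il1b, Il6 and Tnf were at -0.51, -0.61 and -0.11, and 19 of 22 genes of these pathways lay below 0, with a median of -0.20 and 0 past 2-fold.

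Airway secretory genes were divided. Clca1, a secreted regulator of mucus made by goblet cells, ranked highest of the comparison by the smaller of its differences with and without normexp, with levels of 1.69, 0.80, 0.92 and 2.84. It was 4.1-fold higher on ORX/PPE than on sham/PPE, ORX/PPE being the highest of the 4 arrays and sham/PPE the lowest. Bpifa1, an airway defence protein, stood at 6.45, 6.07, 5.54 and 4.67, a difference of -1.40, and was lower on both ORX arrays. Dmbt1 was at -2.19 (-0.99 with normexp) and the lectin Itln1 at -1.11 (-0.92 with normexp). The gel-forming mucins Muc5ac and Muc5b were at 0.035 and 0.17, and over the list 1 gene was higher, 4 lower and 16 neither, with a median of -0.062. The keratin Krt15, a marker of basal cells, stood at -1.23, -0.35, -0.79 and -2.14, a difference of -1.79, and its basal partner Krt5 was at -0.92. Trp63 of the same list stood at 2.10, 2.20, 2.08 and 2.16, a difference of -0.041, with probes from -1.11 to 0.13. Krt15 was the 1 gene called of 17 in this list, whose median was -0.17.

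No measured member of the alveolar, club cell or motile cilia lists passed 2-fold, which is near the 1.29% of all genes that did. Alveolar type 2, type 1 and club cell lists had medians of -0.082, -0.11 and -0.028, over 25, 21 and 22 genes. Motile cilia genes leaned the other way, with 34 of 39 above 0 and a median of 0.21. Foxj1, the master regulator of motile cilia, stood at 3.07, 2.33, 2.51 and 2.49 and the dynein heavy chain Dnah5 at 1.67, 0.96, 1.17 and 1.38. Their differences were 0.17 and 0.42, and sham/PBS was the highest array for both. Capillary endothelium had a median of -0.14, with Car4 at -0.26 and 0 of 30 past 2-fold.

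Genes of B cells, T cells and antigen presentation were mostly above 0 at small size. Of 21 B cell genes 19 lay above 0, with a median of 0.27, and of 26 T cell genes 24 did, with a median of 0.26, where 8954 of 19129 genes in all lay above 0. The B cell antigen Ms4a1 stood at 0.51, 1.51, 2.06 and 2.0, and both ORX arrays lay above both sham arrays. The T cell receptor subunit Cd3e, at 0.14, 0.32, 0.49 and 0.47, differed by 0.16, but another probe was at -0.25. The exhaustion receptor Pdcd1 passed 2-fold at 1.1, but was at 0.28 with normexp, as was the lymphocyte granzyme Gzmk at 1.35 against 0.17. Gzmk was the 1 gene called of 20 from NK and cytotoxic cells, of which 12 lay above 0, with a median of 0.064. Of the same list Gzma was at -0.031, Prf1 at -0.14 and Ncr1 at -0.38. MHC class II genes had a median of 0.21 with 13 of 15 above 0, the invariant chain Cd74 being at 0.26. In the alveolar macrophage list 22 of 30 lay above 0, with a median of 0.22. The 1 member called was Fabp4, lower at -1.18, which stands in the white fat list too. Marco, a scavenger receptor of alveolar macrophages, stood at 0.58, 2.38, 0.33 and 2.63, high on both PPE arrays, with a difference of 0.25. Chil3 was at 0.34 and Siglecf at 0.16. Arg1, the arginase of alternatively activated macrophages, was at 0.81 (0.30 with normexp). Ighg3, an immunoglobulin heavy chain constant gene, stood at -3.08, -0.88, -1.38 and -2.23, a difference of -1.36 with sham/PPE highest and sham/PBS lowest. Dntt, the terminal transferase of developing lymphocytes, was at 1.14 (0.56 with normexp), 1 of 14 genes of thymus and lymph node to be called.

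Several lists of secreted and stress proteins leaned below 0 without members past 2-fold. Complement genes had a median of -0.17 with 22 of 24 below 0, C3 being at -0.38 and Cfb at -0.33. The unfolded protein response had one of -0.23 with 22 of 24 below 0, among them the chaperone Hspa5 at -0.53. Subunits of the respiratory chain had one of -0.15 with 45 of 50 below 0, and sham/PPE was their highest array for 42. Ribosomal proteins, by contrast, had a median of 0.039. Interferon response genes had one of -0.14, with Ifit1 at -0.54, Isg15 at -0.41 and 1 of 34 past 2-fold, the guanylate-binding protein Gbp6 at -1.01.

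Growth, vessel and nerve genes gave few calls. Comp, a cartilage matrix protein also made by fibroblasts, stood at -5.31, -3.14, -5.41 and -5.2, a difference of -2.06 with sham/PPE alone high, and it was the 1 gene called of 11 from cartilage and trachea. Among 17 imprinted growth genes 2 were called lower, H19 and its neighbour Igf2, a growth factor gene, at -1.0 (-0.78 with normexp) with levels of -1.98, -1.98, -2.66 and -2.98. Igf2 was lower on both ORX arrays, unlike H19. Of 24 smooth muscle genes the 1 called was Pln, phospholamban of heart and smooth muscle, at -2.36, while the contractile genes Acta2 and Myh11 were at 0.20 and 0.32. Gja5, a connexin of arteries and atrium, stood at 1.1, 0.34, -0.39 and -0.31, a difference of -0.65, with 0 of 19 larger-vessel endothelial genes called. Schwann cell and nerve genes had a median of -0.065, with 0 of 16 called.

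The next lists, of stress, growth and lipid genes, held 0 calls, and Nrf2 and lipid synthesis genes leaned below 0. The metalloproteinase Adamts4 was at -0.99 under PPE and -2.22 under PBS, with 0 of 15 of its family called here, and the hyaluronan synthase Has2 was at -0.66 and -0.79. Nrf2 antioxidant genes had 21 of 24 below 0 and a median of -0.16. Among them the haem oxygenase Hmox1 stood at 1.64, 2.35, 1.30 and 1.81, a difference of -0.54. Cell cycle genes had a median of 0.062, with the proliferation antigen Mki67 at 0.11, and lipid synthesis genes one of -0.14 with 22 of 28 below 0. Hypoxia response genes had one of -0.031, with the vasodilator Adm at -0.53, and 0 of the members of these 3 lists were called. Reference genes had a median of -0.051, with Actb at -0.10 and Gapdh at -0.20.

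**Figure D3:**
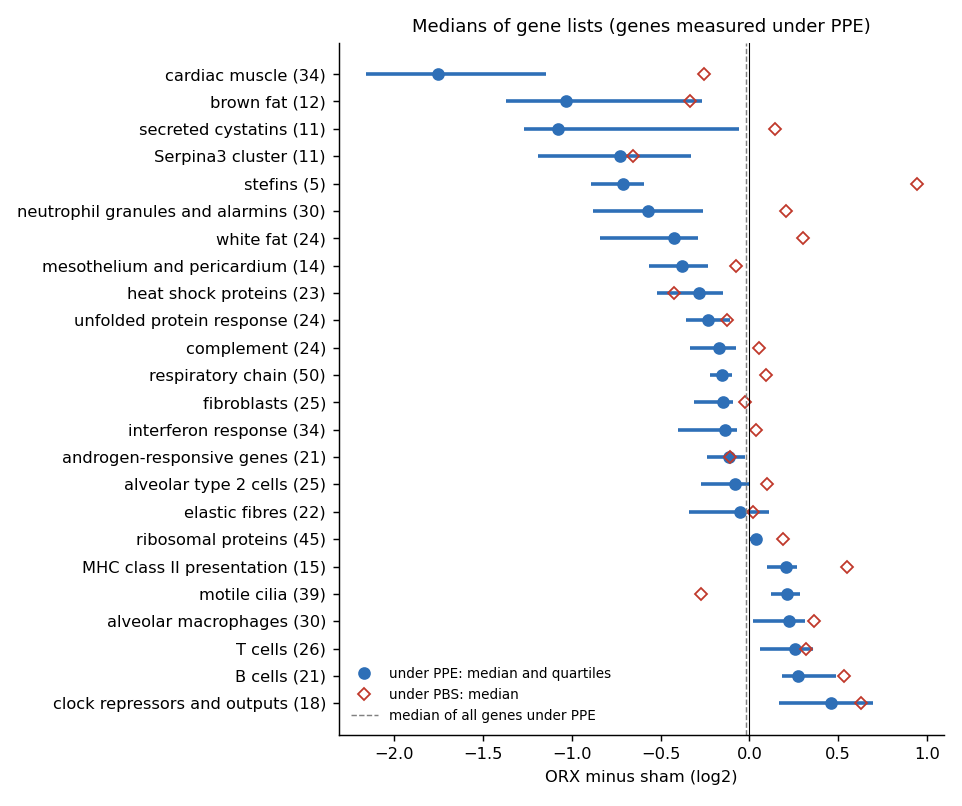
Medians of ORX minus sham (log2) for 24 gene lists, with the number of genes measured under PPE in brackets: filled circles and bars give the median and quartiles under PPE, open diamonds the median under PBS, and the dashed line the median of all genes under PPE. Of the lists drawn, cardiac muscle lies lowest under PPE, at -1.75 against -0.26 under PBS, and clock repressors and outputs lie highest, at 0.46.

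Clock genes stood apart with ORX in both directions. In the circadian clock, ARNTL (BMAL1) and CLOCK activate genes through E-boxes, the period and cryptochrome proteins repress them, and REV-ERB receptors repress Arntl itself, so that Arntl and the period genes run out of phase. Arntl stood at 0.0055, -0.56, -2.18 and -2.36, a difference of -1.80, with all probes between -1.80 and -0.72. Per2, a repressor, stood at 1.35, 1.49, 2.74 and 2.72, a difference of 1.23, with another probe at 0.55. For Arntl both ORX arrays were low and for Per2 both were high.

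Of 18 repressors and outputs of the clock 2 were called higher, 1 lower and 15 neither, with 17 above 0 and a median of 0.46. The repressor Cry1 stood at -3.92, -4.00, -3.28 and -2.78, a difference of 1.23 (0.60 with normexp). Per3 stood at -1.0, -0.29, 0.43 and 0.38, the output Hlf at -1.97, -1.43, -0.48 and -0.55 and the output Tef at 4.71, 5.2, 5.89 and 5.87, differences of 0.67, 0.89 and 0.66. Each was higher on both ORX arrays than on either sham array. The ubiquitin protease Usp2, a clock output, stood at 0.066, 0.024, 0.69 and 0.96, a difference of 0.94.

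Other clock genes had other orders. Nr1d1, which encodes the repressor REV-ERB alpha, stood at -0.16, 0.69, -0.25 and -0.49, so that its difference of -1.18 came with a high sham/PPE array. Dbp, an output of the clock, stood at 2.0, 3.62, 4.15 and 3.95, where sham/PBS alone was low and the difference under PPE was 0.33. Per1 was at 0.45 and Clock at -0.25. Cirbp, a cold-inducible RNA-binding protein whose level follows body temperature, stood at 2.38, 2.79, 3.01 and 3.73, a difference of 0.94, though its probes ranged from 0.026 to 0.94. The hour of death of each pool was not given in the labels, so clock phase and surgery cannot be told apart.

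**Figure D4:**
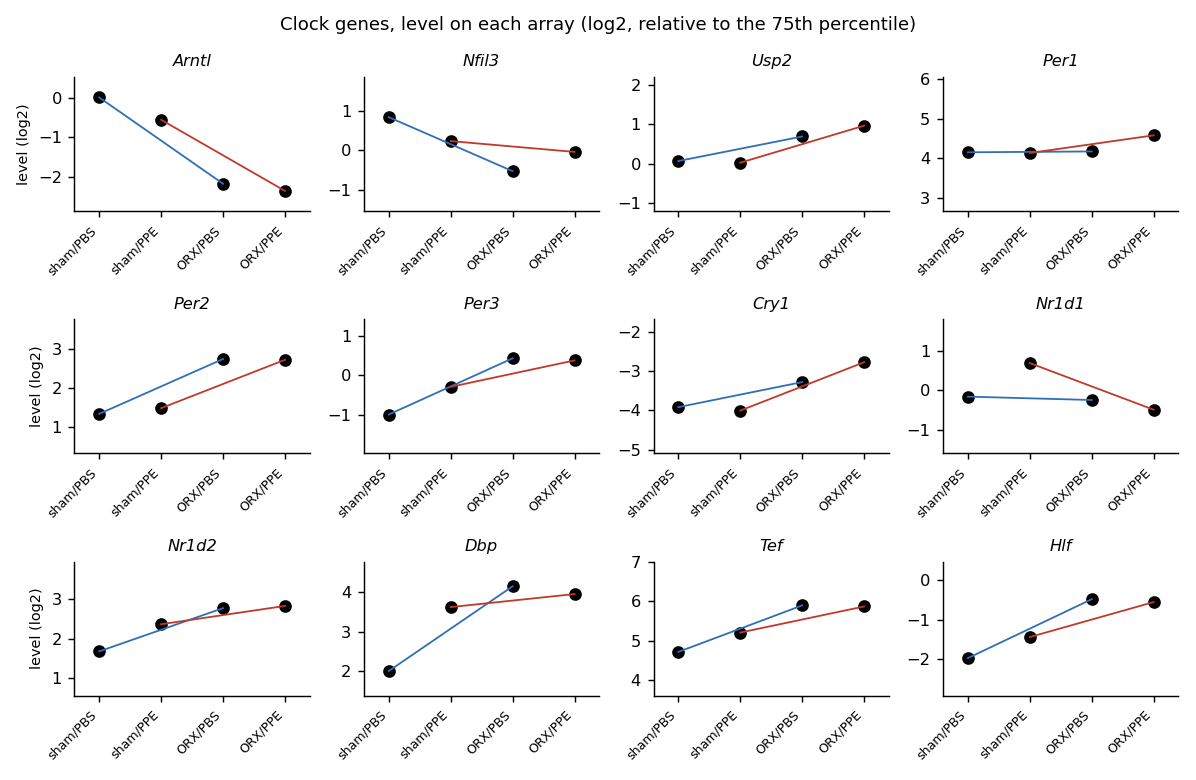
Levels (log2, relative to the 75th percentile) of 12 clock genes on each array, over axes of equal span; blue lines join sham/PBS to ORX/PBS and red lines sham/PPE to ORX/PPE. Both lines run down for Arntl and up for Per2, while for Nr1d1 the red line runs down by more than the blue.

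The promoters of some of these genes carry the E-box CACGTG, the site of ARNTL and CLOCK, or TAGGTCA, the site of REV-ERB. Of 32851 RefSeq promoters of GRCm38.p6, windows of 300 bases around a start site, 7.15% held CACGTG on either strand, 2.61% held TAGGTCA and 3.38% held TTATGNAA, the D-box bound by DBP, TEF, HLF and NFIL3. Counted by gene, with a match in any of its promoters, the shares were 8.09%, 2.97% and 3.99% of 27025 genes. Of 20 clock genes with such an entry, counted the same way, 5 held CACGTG (Bhlhe41, Ciart, Cry1, Per1 and Tef). The site TAGGTCA was held by 2 (Arntl and Nfil3) and the D-box by 2 (Per1 and Per3). The promoters of Tef (chr15:81802423-81802722, plus strand), Cry1 (chr10:85185005-85185304, minus strand) and Arntl (chr7:113207261-113207560, plus strand) are shown for a pair of genes with higher values and 1 called lower, with the match in capitals. It begins at -127 in Tef, -60 in Cry1 and 30 in Arntl, counted from the start site.
Tef: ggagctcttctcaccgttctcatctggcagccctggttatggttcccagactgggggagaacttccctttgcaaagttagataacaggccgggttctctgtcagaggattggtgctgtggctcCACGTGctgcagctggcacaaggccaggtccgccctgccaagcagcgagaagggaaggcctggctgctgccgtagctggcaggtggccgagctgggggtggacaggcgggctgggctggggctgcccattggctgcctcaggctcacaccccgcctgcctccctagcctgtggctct
Cry1: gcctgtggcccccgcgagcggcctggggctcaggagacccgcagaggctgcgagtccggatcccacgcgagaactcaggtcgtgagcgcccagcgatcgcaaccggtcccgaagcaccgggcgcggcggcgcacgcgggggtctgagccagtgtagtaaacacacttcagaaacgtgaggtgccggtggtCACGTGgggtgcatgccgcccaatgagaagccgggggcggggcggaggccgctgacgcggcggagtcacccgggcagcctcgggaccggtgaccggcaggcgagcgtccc
Arntl: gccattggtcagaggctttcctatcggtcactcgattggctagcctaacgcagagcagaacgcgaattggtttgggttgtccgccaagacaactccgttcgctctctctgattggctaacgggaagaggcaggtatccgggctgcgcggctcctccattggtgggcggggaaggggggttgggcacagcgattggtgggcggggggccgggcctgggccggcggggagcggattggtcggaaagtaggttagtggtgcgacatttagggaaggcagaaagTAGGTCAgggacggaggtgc
A match describes the letters only, and Arntl has a further entry without one.

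Heat shock genes leaned lower, as under PBS. Hspa1b and Hspa1a, the inducible HSP70 chaperones, stood at 2.78, 1.11, -0.81 and -0.41 and 3.30, 1.62, 0.24 and 0.60, differences of -1.51 and -1.02. Hsph1, a partner of HSP70, stood at 3.83, 3.28, 2.45 and 2.32, a difference of -0.96. For all 3 sham/PBS was highest, sham/PPE next and both ORX arrays low. Of 23 heat shock genes 2 were called lower and 20 below 0, with a median of -0.28 against -0.42 and 7 lower under PBS. Normexp left Hspa1a at -0.98. Of 19 of these genes with a promoter entry 4 held a match to the heat shock element on either strand (Chordc1, Hspd1, Hspe1 and Hsph1), where 0.662% of all genes with an entry did. Immediate early genes had a median of -0.018, with Fos at -0.83 and Egr1 at -0.87. Glucocorticoid and fasting response genes had one of -0.028, with Fkbp5 at 0.24 and Tsc22d3 at 0.33. Of the 24 measured in this list 1 was called, Pck1, lower at -1.48. Under PBS the median of the list was -0.28, with 4 called lower.

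Androgen-responsive genes other than the urinary proteins lay close to 0. Rhox5 stood at -4.11, -4.35, -5.14 and -5.65, a difference of -1.30 (-0.52 with normexp), and was lower on both ORX arrays. It was the 1 gene past 2-fold of 21 measured, and the list median was -0.11 under PPE and -0.11 under PBS, with 17 below 0. Of 14 genes of steroid receptors and synthesis 0 passed 2-fold. Among these Star, which delivers cholesterol for steroid synthesis, was at -0.86 under PPE and -0.67 under PBS, and Esr1, an oestrogen receptor, at -0.56. A match to the androgen response element, on either strand, was found in 0 of the 38 androgen-responsive and urinary protein genes with a promoter entry. It was found in 0.0777% of all genes with an entry. Akr1c14, which reduces dihydrotestosterone and other steroids, stood at 1.28, 1.28, 2.02 and 2.05, a difference of 0.77, with both ORX arrays above both sham arrays.

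Retinoid genes included Cyp26b1, ranked next to Clca1, the hydroxylase that clears retinoic acid. It stood at 1.93, 1.47, 2.89 and 3.01, a difference of 1.54, and both ORX arrays lay above both sham arrays. Rxrg, a retinoid X receptor, stood at -2.82, -2.67, -3.70 and -3.93, a difference of -1.25 (-0.81 with normexp), lower on both ORX arrays. The list of 20 had a median of -0.037, with Stra6 at -0.39.

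The other genes among the 25 highest belonged to no single list. Entpd8, an ectonucleotidase, was at 1.96 (0.97 with normexp), with levels of -3.00, -4.57, -1.92 and -2.61 and its other probe at 1.78. Adgrl3, a latrophilin, was at 1.01, with 5 probes from 0.62 to 1.1. Gli1, a target and effector of hedgehog signalling, stood at -0.41, -0.47, -0.12 and 0.44, a difference of 0.91, and Ccn2, a matricellular growth factor, at 4.57, 4.74, 5.17 and 5.46, a difference of 0.71. ORX/PPE was the highest array for both, with ORX/PBS next. Vps13a was at 1.33, but its 7 probes ran from -0.0041 to 1.33. Doc2b was at 1.54 and only 0.66 with normexp. Others were Noxa1 at 0.97, Xlr4a at 0.80, Cys1 at 0.76, Hpcal4 at 0.74, Kcnip3 at 0.73, Sord at 0.68, Armcx4 at 0.68, Tspan4 at 0.67 and Fam102b at 0.67. The largest bound in this direction was that of Pate4, at least 5.37-fold higher, which normexp brought to 0.76 on the log2 scale.

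ORX/PBS against sham/PBS shares no array with this comparison, so its values can be set beside these. The calls there were 82 higher (0.421%) and 191 lower (0.981%) of 19463 genes. Of the 198 genes called lower under PPE and measured under PBS, 152 (76.77%) were below 0 and 17 called lower there, and 2 were called higher. Of all genes measured on 4 arrays, 50.37% were below 0 under PBS. Of 43 called higher under PPE and measured under PBS, 26 (60.47%) were above 0, against 49.63% of all genes, with 6 called higher and 1 called lower. Cardiac genes had medians of -1.75 under PPE and -0.26 under PBS, white fat genes -0.42 and 0.30, neutrophil genes -0.57 and 0.21, stefins -0.71 and 0.94, and motile cilia genes 0.21 and -0.27. Clock repressors and outputs had medians of 0.46 and 0.63, B cell genes 0.27 and 0.53, T cell genes 0.26 and 0.32 and MHC class II genes 0.21 and 0.55. The medians of the last 4 lists, the cardiac list, the Serpina3 cluster and heat shock proteins thus lay on the same side of 0 under both agents, and those of white fat, neutrophil, stefin and cilia genes on opposite sides. Whether the ORX difference depends on the agent could not be tested.

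**Figure D5:**
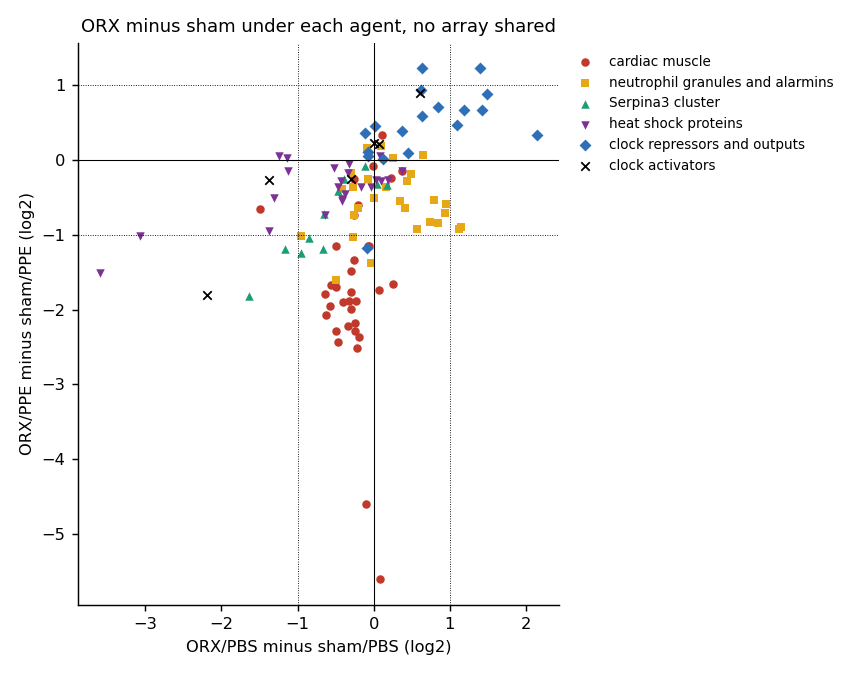
ORX minus sham under PPE (vertical, log2) against ORX minus sham under PBS (horizontal, log2) for members of 6 gene lists measured on all 4 arrays, with dotted lines at 2-fold. Cardiac genes spread downward near 0 on the horizontal axis, while Arntl, Serpina3i, Hspa1a and Hspa1b lie at the lower left and Per2 at the upper right.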

How the data were processed

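Total lung RNA from pools of 5 mice, 1 pool for each of 4 groups, was labelled with Cy3 and hybridised to Agilent 8x60K mouse arrays, all on 1 slide. Per the file headers, intensity was extracted with Feature Extraction 10.7.1.1 (the submitters' processing notes name 9.5.1.1), with gProcessedSignal background-subtracted and detrended, and probe coordinates are on mm9. Also per the file headers, other marks of 0 or 1 give spots well above background, saturated or outlying. The deposited value table holds intensity equal to quantile-normalized processed signal, with a median of 71.5 on each array, so its scale is linear and its direction that of the scanner files.

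Of 59305 non-control spots 31 to 54 an array were left out as outliers, and 0 were saturated. Spots of a probe were averaged, and log2 signals were taken relative to the 75th percentile of the array. Genes were named through RefSeq accessions for 33903 probes, symbols for 9458, synonyms for 488 and the name in the file for 1571, while 11185 stayed unnamed. Across 300 probes spotted 10 times, the SD of log2 signals within an array was 0.0337 on sham/PPE and 0.0323 on ORX/PPE, which is spot error only. The number of arrays, 1 a group, limits the precision, so no p-value was computed.

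Genes were ranked by their difference with or without normexp (limma 3.58.1, offset 50), whichever was smaller in size, and those named were the top 25 of each direction, the 6 largest bounds a direction, and in each of 72 gene lists fixed anchors and up to 4 called members a direction. Genes known only by number and receptor families of smell were counted and not named. The lists and the comparison were chosen with earlier results of these data known. A bound sets the bright array against the higher of the dim probe and the lowest signal of a probe well above background on the other array. Alternatives were normexp, quantile normalization, median centring, stricter and looser filters on dim probes, averaging over probes, the value table, 1.5-fold and 3-fold thresholds, added bounds and, chosen after seeing the data, leaving out the lists of other organs. Python 3.11.15 and R 4.3.3 were used, and the calling steps were tested on simulated data.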

Additional observations from a re-analysis of the deposited data

Results flagged for a closer look

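A few genes passed 2-fold with ORX in opposite directions under the agents. There were 3, of which 2 carry a gene name. Cst13, a cystatin gene, was at -1.20 under PPE and 1.13 under PBS. Ighg3, the immunoglobulin gene, was at -1.36 under PPE and 1.7 under PBS. Normexp brought Cst13 to -0.52 and 0.18, and Ighg3 to -1.14 and 1.24. For both, sham/PPE was the highest of the 4 arrays and sham/PBS the lowest. With 1 array a group these differences between agents were not tested.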

How the results depend on the processing

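No named gene past 2-fold turned direction under any alternative run. Of the 46 genes called higher and 201 called lower, normexp left 4 and 81, and under PBS it left 27 of 82 and 65 of 191. Calls numbered 336 and 687 at 1.5-fold, 3 and 75 at 3-fold, and 696 and 1249 with no filter on dim probes. Quantile normalization and the deposited value table each gave 48 and 195, median centring 48 and 190, probes above background on all 4 arrays 43 and 198, the mean of a gene's probes 40 and 192, and added bounds 67 and 288. Leaving out the lists of other organs, an alternative chosen after seeing the data, gave 45 and 154. Of 78 named genes past 2-fold, among 272 measured, normexp took 28 below it, the mean of probes 5 and median centring 3. Of 72 list medians normexp moved 8 by over 0.1 and no filter 6. No paired analysis was possible because each group is 1 array. Dim probes, for which signal over background is low, limit what these arrays show. With 1 array a side no alternative measures the spread between mice.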

Other observations

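Some genes called lower lay outside the naming rule and were picked after their values were seen. Several are known from heart muscle. Myom2, an M-band protein, stood at -1.0, -0.18, -1.16 and -2.11, Hrc, a calcium-binding protein of the sarcoplasmic reticulum, at -0.80, -0.21, -1.23 and -1.74, and Tnni3k, a cardiac kinase, at -3.16, -2.09, -3.02 and -3.81, differences of -1.92, -1.52 and -1.72. Corin, the protease that activates the atrial natriuretic peptide, stood at -3.55, -2.12, -3.68 and -3.71, a difference of -1.58. The atrial potassium channel Kcnj5 was at -1.99 and the calcium pump Atp2a2 at -1.34, though another Atp2a2 probe was at -0.13. For all 6 ORX/PPE was the lowest array and sham/PPE the highest.

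Others belong to no list used. Sfrp5, a secreted WNT antagonist known from fat, stood at -3.88, -1.99, -3.83 and -4.81, a difference of -2.83 (-1.65 with normexp). Akr1c18, a hydroxysteroid dehydrogenase that inactivates progesterone, stood at -2.89, -2.13, -3.79 and -4.62, a difference of -2.49 (-1.56 with normexp), against 0.77 for its relative Akr1c14. Slfn4, an interferon-inducible gene of myeloid cells, stood at -4.40, -2.68, -4.36 and -4.57, a difference of -1.90, with sham/PPE alone high. Hamp, the iron hormone hepcidin, stood at -1.51, -1.56, -1.56 and -2.87, a difference of -1.31, with ORX/PPE alone low.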
